A study of Mus musculus with 10 samples.

Results

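J-domain cochaperones were measured by RNA sequencing of mouse lumbar spinal cord, with the heat-shock-inducible gene Dnajb1 left out. The members were the rows of the deposited gene table whose symbol is Dnaja, Dnajb or Dnajc followed by a number only. There were 42 of them among 24411 listed genes, 4 in class A, 12 in class B and 26 in class C. Samples came from mice treated with paclitaxel (5 libraries) or with vehicle (5 libraries). Paclitaxel stabilises microtubules and is a cancer drug whose use is limited by a painful neuropathy. Strain, age, sex, dose and time of sampling are not given in the labels. Nothing there says that the samples of 1 group came from different mice, so the p-values rest on a spread that may be technical. By its title the study concerns the calcitonin receptor-like receptor and the methyltransferase MLL2 in this neuropathy.

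J-domain proteins deliver unfolded clients to HSP70 chaperones and speed up the ATP hydrolysis that locks the client in place. Class A proteins carry the domain layout of bacterial DnaJ, with a glycine and phenylalanine rich stretch and a zinc-binding region. Class B proteins lack the zinc-binding region, and class C holds all other proteins with a J domain, many of them tied to one organelle or one client. In neurons they are known for keeping synaptic vesicles working, for clathrin uncoating and for holding back aggregation of misfolded proteins.

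Depth was 3676259 to 5432072 counts per paclitaxel library and 4585899 to 7791594 counts per vehicle library. On the CPM scale, which divides each count by its library's scaled total, 3 counts were worth between 0.385 and 0.819. Neuron, oligodendrocyte, astrocyte and lumbar Hox markers were present in all libraries, with summed neuron markers from 3842 to 4103 CPM with paclitaxel and from 3806 to 4123 CPM with vehicle. Skeletal muscle markers summed to at most 1.65 CPM with paclitaxel and 2.39 CPM with vehicle. Paclitaxel replicate 3 stood apart in the summed glucocorticoid response genes, at 1221 CPM against 334 to 535 CPM in the other paclitaxel libraries. Among the vehicle libraries, replicates 5 and 4 were highest in that sum, at 715 and 553 CPM against 347 to 395 CPM in the others. Summed meningeal and fibroblast markers were at 881 CPM in paclitaxel replicate 3, of which Ptgds made up 829 CPM. Dcn (7.22 CPM), Lum (0.42 CPM) and Igf2 (2.76 CPM) were at their lowest among the paclitaxel libraries there. Col1a1 (5.94 CPM), Col1a2 (34.6 CPM) and Slc6a13 (1.06 CPM) lay inside the range of the other paclitaxel libraries. In vehicle replicate 4 the sum of these markers was 756 CPM, with Ptgds at 666 CPM. Col1a1, Col1a2, Igf2 and Slc6a13 were also at their highest among the vehicle libraries there. Lum (1.09 CPM) was at its lowest among them, and Dcn was at 7.16 CPM against 7.04 to 9.61 CPM in the other vehicle libraries.

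Promoters of 35 members were found in the RefSeq table (GRCm38.p6, from 250 bases before to 50 after each start site), in 47 windows, and were searched on both strands. Dnaj genes include targets of heat shock factor and of the unfolded protein response, and the 2 stretches shown are the matches to the longest motifs that lay wholly before a start site, with the match in capitals. The first match is to 3 alternating units of the heat shock element (TTC, GAA and TTC, or GAA, TTC and GAA, each 2 bases apart). The second is to the endoplasmic reticulum stress element (CCAAT and CCACG, 9 bases apart).
Dnajb6: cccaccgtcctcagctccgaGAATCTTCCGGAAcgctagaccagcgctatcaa
Dnajc3: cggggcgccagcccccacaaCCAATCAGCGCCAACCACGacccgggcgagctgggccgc
The Dnajb6 stretch lies at chr5:29735832-29735884 on the plus strand, and its match starts 46 bases before the first of the annotated start sites. The Dnajc3 stretch lies at chr14:118937807-118937865 on the plus strand, with the match starting 105 bases before the start site. The 3-unit element was found in 1 of 35 members and in 0.662% of the 27025 genes with a window. The stress element was found in 1 of 35 members and in 0.137% of genes. Any 2 units, TTCNNGAA or GAANNTTC, which the 3-unit element contains, stood in windows of 6 members (Dnaja1, Dnaja4, Dnajb4, Dnajb6, Dnajc10 and Dnajc27), 17.1% of those with a window, beside 4587 of the 27025 genes. Dnajb11 held the second stress element (ATTGG and CCACG, 1 base apart; 0.0444% of genes), and its match lay after the start site. Dnajc25 held TGACGTGG, the unfolded protein response element (0.714% of genes). The windows of Dnajc2, Dnajc5, Dnajc11, Dnajc12, Dnajc18, Dnajc22 and Dnajc30 were not analysed here.

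By median transcript length, Dnajc5, Dnajb2 and Dnajb6 had the highest mean levels of the J-domain genes in the cord. Levels between genes are given as CPM per kilobase of transcript, over the median length of each gene's transcripts. Dnajc5, which encodes the cysteine string protein of synaptic vesicles, was highest at 115 ± 4.49 (SD, n = 5) CPM per kb with paclitaxel and 113 ± 1.80 (SD, n = 5) with vehicle. Dnajb2, a ubiquitin-binding class B protein enriched in neurons, followed at 91.0 ± 6.89 CPM per kb with paclitaxel and 98.6 ± 5.77 CPM per kb with vehicle. Dnajb6, a suppressor of polyglutamine aggregation, was at 84.9 ± 4.43 CPM per kb with paclitaxel and 80.8 ± 4.14 CPM per kb with vehicle. The next members were Dnaja1, Dnajc7, Dnajc8, Dnaja2, Dnajc27 and Dnajc6, between 50.2 and 70.8 CPM per kb with paclitaxel and between 51.0 and 73.8 CPM per kb with vehicle. Each neighbouring pair from Dnajb2 down to Dnajc6 overlapped in its ranges over libraries in at least 1 group, so the order of neighbours is not resolved. Members further apart could separate by median length. Dnajb2 was at least 79.6 CPM per kb with paclitaxel and 91.9 with vehicle, and Dnajc6 at most 54.0 and 53.3.

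A gap followed below Dnajc6, whose lowest value was 47.6 CPM per kb with paclitaxel and 48.0 CPM per kb with vehicle. Dnajc18, the next member, reached at most 35.1 CPM per kb with paclitaxel and 31.5 CPM per kb with vehicle. With the longest transcript in place of the median the same 10 members stayed on top, but Dnajc7 led at 70.8 CPM per kb over all libraries and Dnajc5 came to 64.5 CPM per kb, so the order among the top members depends on which transcript is used. Class C held 57.6 ± 0.725% of the members' summed level per kb with paclitaxel and 57.2 ± 0.598% with vehicle. Class B held 25.7 ± 0.687% with paclitaxel and 25.9 ± 0.74% with vehicle, and class A 16.7 ± 0.324% with paclitaxel and 16.9 ± 0.63% with vehicle (SD, n = 5 each). These shares rest on median length, and the SD does not cover the choice of transcript. With the longest transcript Dnajb2 went from 94.8 to 56.3 CPM per kb over all libraries and Dnajb6 from 82.9 to 45.6 CPM per kb. Class shares by longest transcript are not given here. The summed level of all members ran from 1036 to 1093 CPM per kb with paclitaxel and from 1046 to 1108 CPM per kb with vehicle, so the groups overlapped.

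**Figure D1:**
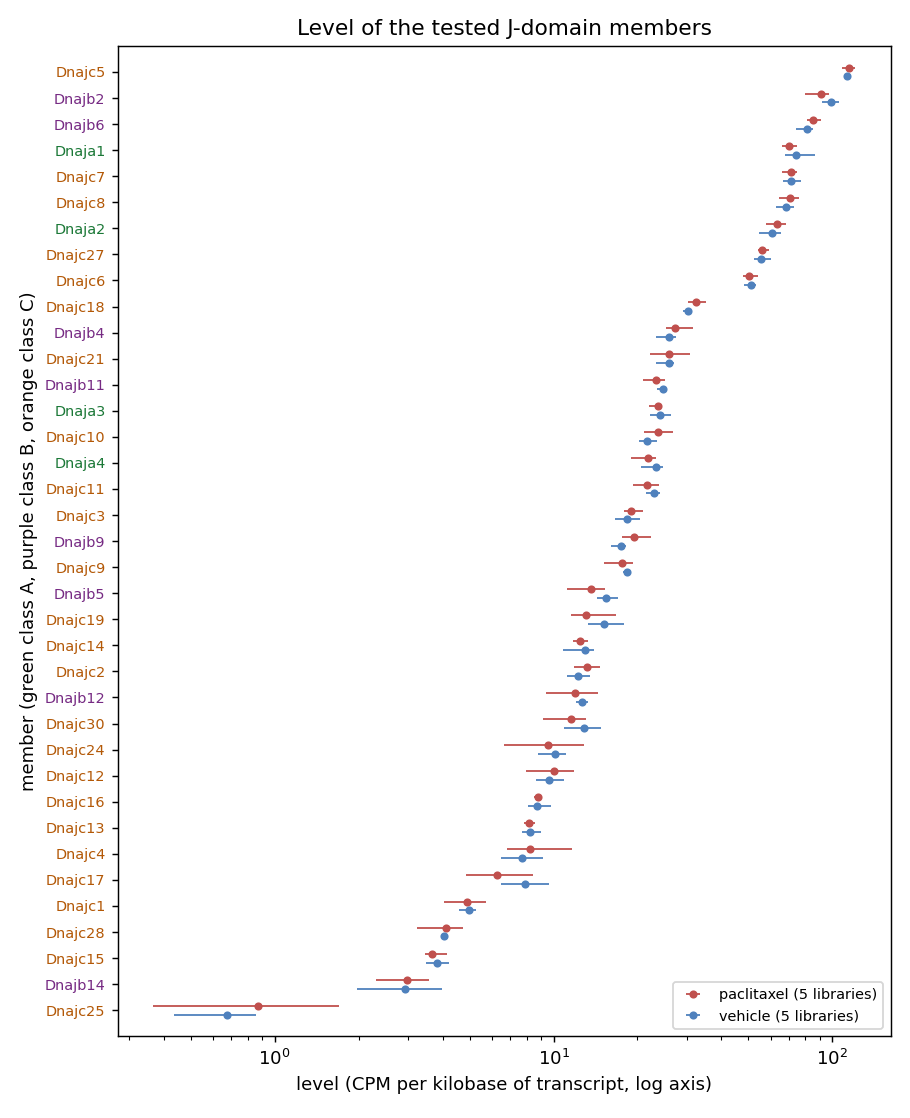
Level of each tested J-domain member in CPM per kilobase of transcript (log axis), with points for the group mean and bars from the lowest to the highest of 5 libraries, paclitaxel above vehicle. Dnajc5 is on top near 115 CPM per kb, a gap lies below Dnajc6, and the bars of the groups overlap for every member.

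Dnajb3, Dnajb7, Dnajb8, Dnajb13 and Dnajc22 had almost no counts. Dnajb8, a testis gene, had 0 counts in all 10 libraries, which allows up to 0.819 CPM in the shallowest paclitaxel library and 0.660 CPM in the shallowest vehicle library. Dnajb7 had 4 counts over all libraries, Dnajc22 had 5, and Dnajb13, a protein of sperm flagella and motile cilia, had 16. Markers of ciliated ependymal cells summed to between 38.0 and 53.4 CPM with paclitaxel and between 40.4 and 50.8 CPM with vehicle, most of it from the transcription factor gene Foxj1 (25.3 to 35.2 CPM and 26.5 to 35.1 CPM). Dnajb3, another testis gene, had 42 counts in all. These 5 members did not pass the filter on low counts and were not tested, which left 37 members (4 of class A, 8 of class B and 25 of class C).

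No J-domain member passed the comparison of paclitaxel with vehicle. Of the 37 tested members 0 reached an adjusted p of 0.05 (edgeR quasi-likelihood test, Benjamini-Hochberg over 13287 genes; 0% of all tested genes), and the lowest adjusted p among members was 0.80. DESeq2 and limma-voom also called 0 members. At an unadjusted p under 0.05 there were 0 of 37 members, against 6.07% of all tested genes. In 0 of 37 members were the groups apart without overlap, against 1.09% of all tested genes. Both counts leave out Dnajb1, for which the groups did not overlap (edgeR unadjusted p = 0.000863, adjusted p = 0.79). There were 17 members higher and 20 lower in value with paclitaxel (49.1% of all tested genes were higher and 50.9% lower), with a median log2 fold change of -0.007 against -0.003 for all tested genes. In bulk tissue a difference in cell numbers and a difference in RNA per cell cannot be told apart.

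The precision of these estimates was high enough to bound most changes. The 95% interval of the fold change lay within 1.2-fold in either direction for 23 of 37 members, against 41.6% of all tested genes, and within 1.5-fold for 35 of 37, against 86.7%. Members were also more abundant than the typical gene, with a median of 53.4 CPM against 29.7 CPM. The 2 with intervals beyond 1.5-fold were Dnajc17 and Dnajc25. Dnajc25 had 153 counts in all, and its value in paclitaxel replicate 4 was 6.82 CPM against at most 3.82 CPM in the other paclitaxel libraries.

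**Figure D2:**
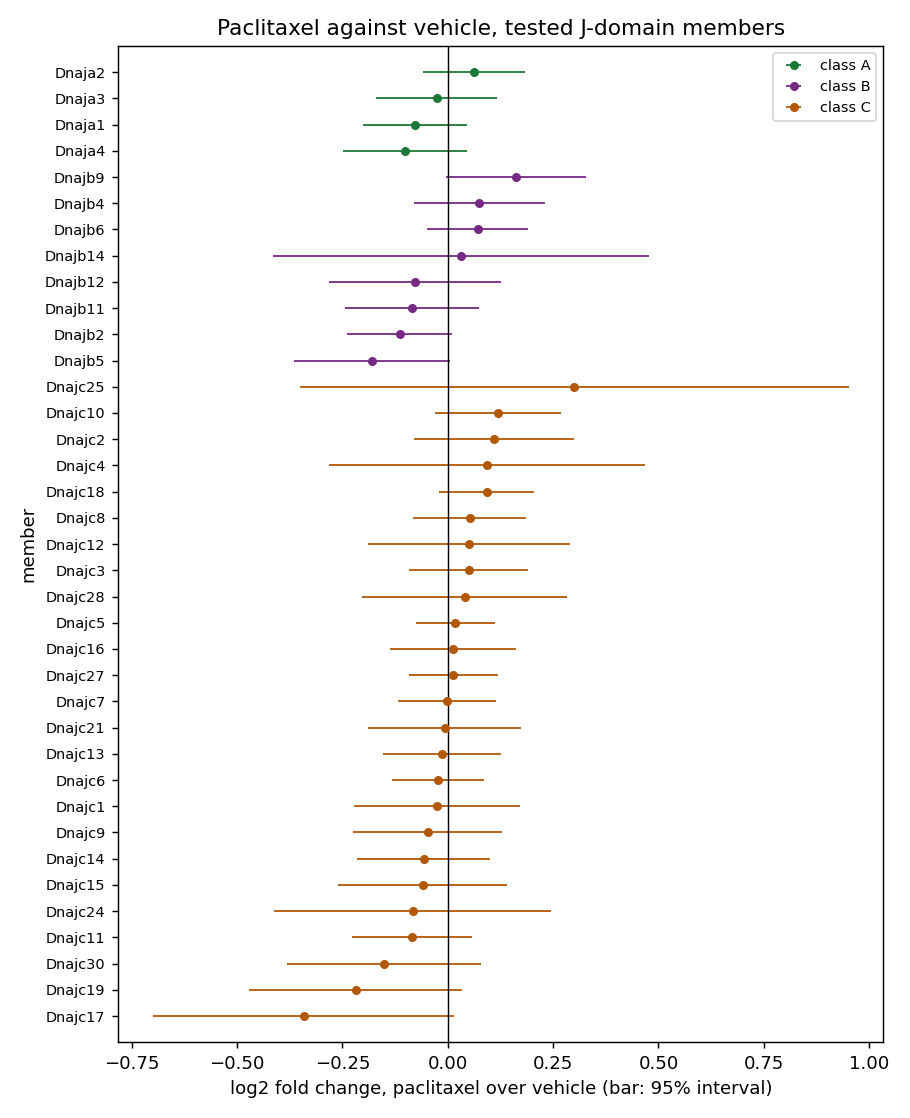
Log2 fold change of each tested member, paclitaxel over vehicle, with 95% intervals from edgeR, grouped by class. Every interval includes 0, and the widest belong to Dnajc25 and Dnajb14.

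Class A held 1 member higher and 3 lower in value, with a median log2 fold change of -0.05. Dnaja1 (chr4:40722468-40734965) is the abundant farnesylated cytosolic member. It was at 319, 296, 305, 335 and 320 CPM in the paclitaxel libraries, against 389, 320, 321, 327 and 304 CPM in the vehicle libraries (replicates 1 to 5 in each). The groups overlapped, and vehicle replicate 1 lay above all other libraries. The log2 fold change was -0.08 (SE 0.06; edgeR adjusted p = 0.83), and -0.01 without vehicle replicate 1. Its expected counts were not whole in any library, as happens where reads fit more than 1 place, so its level is less certain than its depth alone gives.

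Dnaja2 (chr8:85537633-85555361), the other major cytosolic class A protein, was at 189, 169, 199, 185 and 180 CPM with paclitaxel, against 191, 160, 177, 181 and 174 CPM with vehicle. The groups overlapped, with paclitaxel replicate 3 above all vehicle libraries and vehicle replicate 2 below all paclitaxel libraries (log2 fold change 0.06, SE 0.06; 0.03 to 0.10 when single libraries were left out). Dnaja4 (chr9:54698848-54716317), a cytosolic relative, was at 67.0, 64.7, 57.1, 70.1 and 67.9 CPM with paclitaxel, against 73.9, 62.0, 71.7, 71.2 and 71.5 CPM with vehicle. In 4 of 5 paclitaxel libraries it was below the vehicle mean, and the groups overlapped through vehicle replicate 2 (log2 fold change -0.10, SE 0.07; -0.06 without paclitaxel replicate 3). Dnaja3 (chr16:4684070-4707695), the mitochondrial class A protein, was at 63.3, 59.1, 62.8, 56.8 and 63.1 CPM with paclitaxel, against 57.3, 67.8, 63.4, 58.8 and 63.6 CPM with vehicle. The groups overlapped, with the highest value in vehicle replicate 2 (log2 fold change -0.03, SE 0.07), and the sign turned without paclitaxel replicate 4 or vehicle replicate 2.

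Class B held 4 members higher and 4 lower in value, with a median log2 fold change of -0.02 that ran from -0.07 to 0.02 when single libraries were left out. Dnajb9 (chr12:44205897-44210068) encodes ERdj4, a target of the unfolded protein response that assists degradation of misfolded proteins from the endoplasmic reticulum. It was at 47.1, 44.9, 55.0, 49.7 and 43.3 CPM with paclitaxel, against 39.4, 40.9, 44.4, 44.9 and 44.5 CPM with vehicle. Each paclitaxel library exceeded the mean of the vehicle libraries, and 3 of 5 exceeded every vehicle library. It had the lowest p of all members (log2 fold change 0.16, SE 0.08, 95% interval -0.004 to 0.33; edgeR unadjusted p = 0.055, adjusted p = 0.80), and the log2 fold change was 0.11 without paclitaxel replicate 3.

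Dnajb5 (chr4:42949867-42959425), a close relative of Dnajb1, ran the other way. It was at 25.8, 35.1, 31.8, 32.2 and 31.6 CPM with paclitaxel, against 34.0, 35.6, 33.0, 35.2 and 39.2 CPM with vehicle. In 4 of 5 paclitaxel libraries it was below every vehicle library, with paclitaxel replicate 2 inside the vehicle range (log2 fold change -0.18, SE 0.09; edgeR unadjusted p = 0.0561, adjusted p = 0.80). Without paclitaxel replicate 1 the value was -0.12. Dnajb4 (chr3:152181580-152210432), the third of these relatives, was at 62.1, 62.3, 78.1, 67.4 and 66.4 CPM with paclitaxel, against 66.2, 61.1, 57.2, 67.7 and 66.5 CPM with vehicle. Its highest value was in paclitaxel replicate 3 and the other libraries overlapped (log2 fold change 0.08, SE 0.08; 0.02 without paclitaxel replicate 3 and 0.04 without vehicle replicate 3). For Dnajb1 itself the groups did not overlap, at 44.3 to 52.7 CPM with paclitaxel and 55.6 to 62.5 CPM with vehicle (log2 fold change -0.28, SE 0.07; edgeR unadjusted p = 0.000863, adjusted p = 0.79).

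Dnajb2 (chr1:75236395-75245692) was at 163, 173, 145, 177 and 170 CPM with paclitaxel, against 168, 176, 188, 193 and 173 CPM with vehicle. Each paclitaxel library was below the mean of the vehicle libraries, and 2 of 5 were below every vehicle library, with the others inside the vehicle range (log2 fold change -0.11, SE 0.06; edgeR adjusted p = 0.80). The value was -0.07 without paclitaxel replicate 3, the lowest library. Dnajb6 (chr5:29735898-29786478), whose promoter stretch is printed above, was at 130, 130, 142, 146 and 134 CPM with paclitaxel, against 137, 119, 131, 129 and 133 CPM with vehicle. Each paclitaxel library exceeded the mean of the vehicle libraries, 2 of 5 exceeded every vehicle library, and the rest overlapped (log2 fold change 0.07, SE 0.06; 0.05 without vehicle replicate 2). The other class B members were Dnajb11, the BiP cochaperone ERdj3 (log2 fold change -0.08, SE 0.08), and the membrane-bound Dnajb12 (-0.08, SE 0.10) and Dnajb14 (0.03, SE 0.20), which help degrade proteins of the endoplasmic reticulum. Dnajb14 had the highest coefficient of variation of the tested class B members. Its levels ran from 21.8 to 34.0 CPM with paclitaxel and from 18.7 to 37.8 CPM with vehicle. The exons of Dnajb14 overlap a pseudogene on the same strand, and its expected counts were whole in every library.

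**Figure D3:**
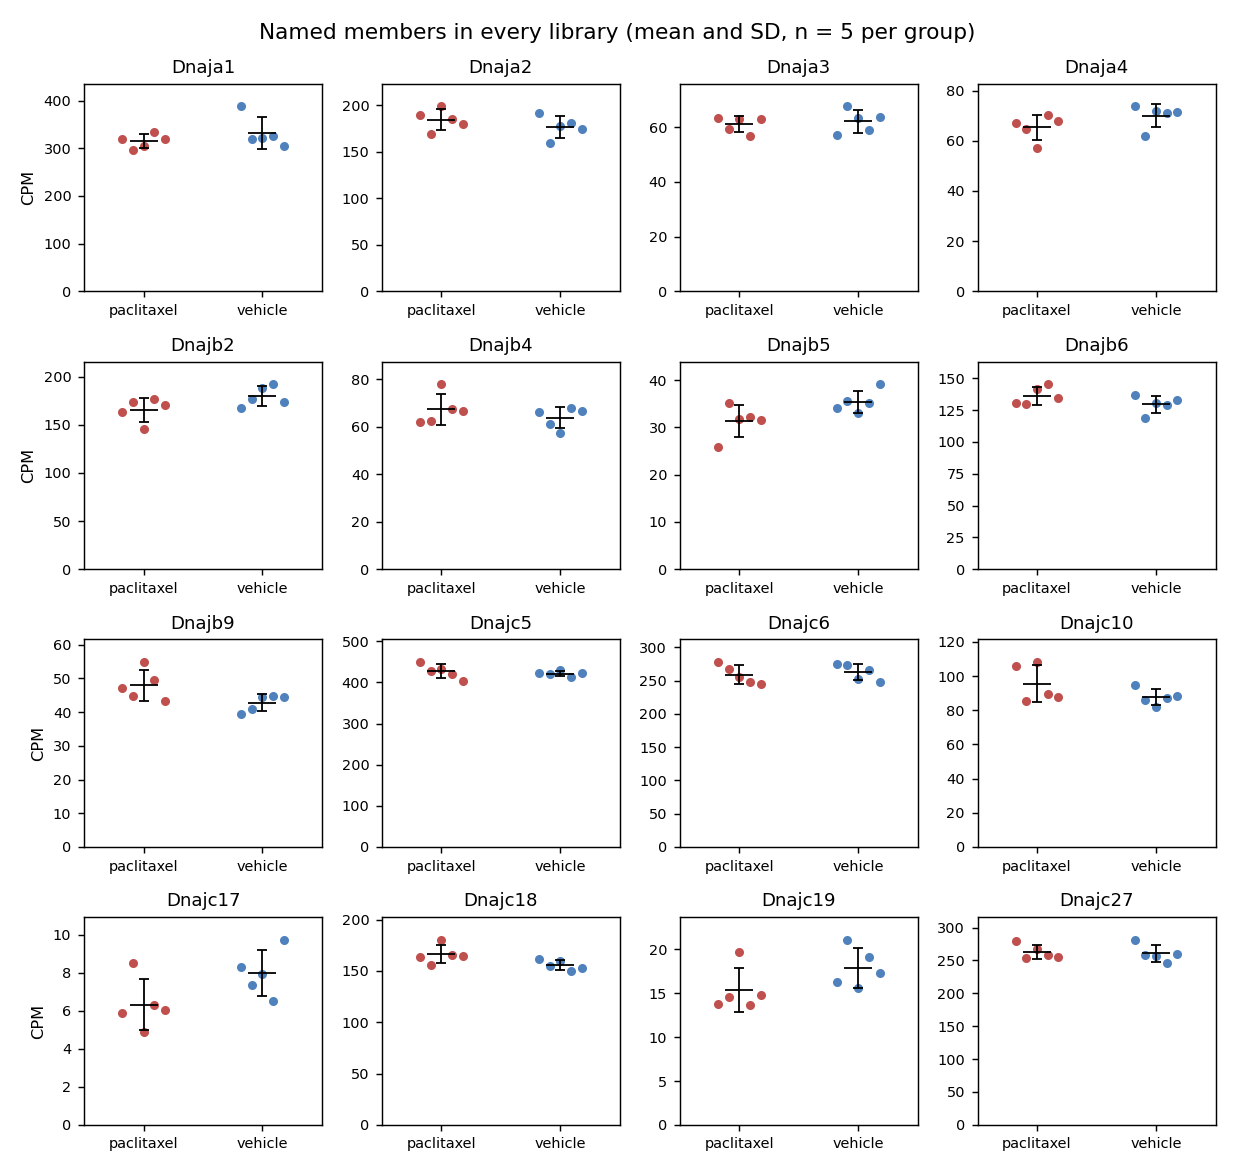
Level in CPM of the 16 members described by library (points, 5 per group, paclitaxel left), with the group mean and SD in black. The groups overlap in every panel, Dnajb6, Dnajb9 and Dnajc18 have all 5 paclitaxel points above the vehicle mean, and Dnajb2 and Dnajb5 have all 5 below it.

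Class C held 12 members higher and 13 lower in value, with a median log2 fold change of -0.002. Its 3 members of highest CPM had the narrowest intervals. Dnajc5 (chr2:181518858-181552886) was at 451, 427, 432, 421 and 405 CPM with paclitaxel, against 422, 420, 431, 412 and 422 CPM with vehicle. The vehicle libraries lay inside the paclitaxel range (log2 fold change 0.02, SE 0.05; 0.002 without paclitaxel replicate 1 and 0.04 without replicate 5), with a 95% interval from 0.949-fold to 1.08-fold. Dnajc6 (chr4:101496648-101642799), the neuronal auxilin that strips clathrin from endocytosed vesicles, was at 279, 267, 255, 248 and 246 CPM with paclitaxel, against 275, 273, 253, 266 and 248 CPM with vehicle. Its ranges were nearly the same (log2 fold change -0.02, SE 0.05; -0.05 to -0.001 when single libraries were left out), with an interval from 0.913-fold to 1.06-fold. Dnajc27 (chr12:4082569-4124140), a Ras-like GTPase with a J domain, was at 279, 254, 268, 259 and 256 CPM with paclitaxel, against 282, 258, 257, 247 and 259 CPM with vehicle. The paclitaxel libraries lay inside the vehicle range (log2 fold change 0.01, SE 0.05), and the sign turned without paclitaxel replicate 1 or vehicle replicate 4. Dnajc13, an endosomal J-domain protein, completed the vesicle members at a log2 fold change of -0.01 (SE 0.07).

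Members of the endoplasmic reticulum were 7 higher and 3 lower in value, with a median log2 fold change of 0.04, and 0 of 10 passed. Dnajc10 (chr2:80315446-80354055), the disulfide reductase ERdj5, was at 106, 85.6, 108, 89.8 and 87.9 CPM with paclitaxel, against 94.9, 85.9, 81.8, 87.5 and 88.4 CPM with vehicle. Only paclitaxel replicates 1 and 3 lay above the vehicle range (log2 fold change 0.12, SE 0.07; 0.07 without paclitaxel replicate 3). Dnajc18, a membrane-bound member, was at 164, 156, 181, 166 and 164 CPM with paclitaxel, against 162, 155, 159, 150 and 153 CPM with vehicle. In 4 of 5 paclitaxel libraries it was above every vehicle library, and paclitaxel replicate 2 lay inside the vehicle range (log2 fold change 0.09, SE 0.05; edgeR unadjusted p = 0.103, adjusted p = 0.81). It was 0.06 without paclitaxel replicate 3. Dnajc3, the BiP cochaperone whose stress element is printed above, averaged 97.7 ± 6.90 CPM (SD, n = 5) with paclitaxel and 94.5 ± 7.66 CPM (SD, n = 5) with vehicle (log2 fold change 0.05, SE 0.07). The others were Dnajc1 (-0.02), Dnajc16 (0.01) and Dnajc25 (0.30, SE 0.31).

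Mitochondrial members were 2 higher and 5 lower in value, with a median log2 fold change of -0.06, and 0 of 7 passed. Dnajc19 (chr3:34057280-34081354) is a part of the motor that pulls proteins into the mitochondrial matrix. It was at 13.8, 14.6, 19.7, 13.6 and 14.9 CPM with paclitaxel, against 16.3, 21.1, 15.6, 19.1 and 17.3 CPM with vehicle. In 4 of 5 paclitaxel libraries it was below every vehicle library, while paclitaxel replicate 3 was above 4 of the 5 vehicle libraries (log2 fold change -0.22, SE 0.12; edgeR unadjusted p = 0.0875, adjusted p = 0.80). Without paclitaxel replicate 3 the log2 fold change was -0.32, at an edgeR unadjusted p of 0.0121 and an adjusted p of 0.97. The other mitochondrial members were Dnajc11 (-0.08), which is linked to the cristae scaffold, Dnajc30 (-0.15), Dnajc15 (-0.06), Dnajc4 (0.09), Dnajc28 (0.04) and Dnaja3, given above.

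Among members with nuclear or other roles, 1 was higher and 5 were lower in value. Dnajc17 (chr2:119172500-119208838), which is tied to splicing, was at 5.86, 8.50, 4.88, 6.28 and 6.06 CPM with paclitaxel, against 8.32, 7.34, 7.92, 6.51 and 9.74 CPM with vehicle. In 4 of 5 paclitaxel libraries it was below every vehicle library, and paclitaxel replicate 2 was above 4 of them. It had the lowest log2 fold change of all members, -0.34 (SE 0.17, 95% interval -0.70 to 0.01; edgeR unadjusted p = 0.0596, adjusted p = 0.80), on 380 counts over all libraries. Also in this group were the splicing-associated Dnajc8 (0.05), the histone chaperone Dnajc9 (-0.05), the ribosome maturation factor Dnajc21 (-0.007), Dnajc24, which acts in diphthamide synthesis (-0.08), and Dnajc14 (-0.06), a membrane protein involved in receptor export. The cytosolic Dnajc7, which binds both HSP70 and HSP90, was at -0.002 and the ribosome-associated Dnajc2 at 0.11. Both belong to the 9 members of cytosolic and nuclear chaperoning, of which 4 were higher and 5 lower in value. Their median log2 fold change was -0.002, and 0 of 9 passed. Dnajc12, a partner of the aromatic amino acid hydroxylases, was at 0.05.

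The coefficient of variation within groups had a median of 7.58% over the members, against 10.5% over all tested genes, and ran from 2.75% to 40.6%. Paclitaxel replicate 3 had the highest value of all 10 libraries in 11 of 37 members (29.7%, against 19.7% of all tested genes) and the lowest in 3 (8.11%, against 2658 of the 13287 tested genes). It was highest for Dnajb9, Dnajb4, Dnajc10, Dnajc18 and Dnajc3 and lowest for Dnaja4, Dnajb2 and Dnajc17. Vehicle replicate 1 was highest in 8 members (21.6%, against 9.29%), and paclitaxel replicate 2 was lowest in 8 (21.6%, against 7.80%). The part of the glucocorticoid response genes and of Ptgds, both high in paclitaxel replicate 3, in these values was not tested. Without that library and vehicle replicate 4 together 0 members passed and 1, Dnajc19, was at an unadjusted p under 0.05. The share of all tested genes at that level was 6.07% in the main fit and is not given here for this run.

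**Figure D4:**
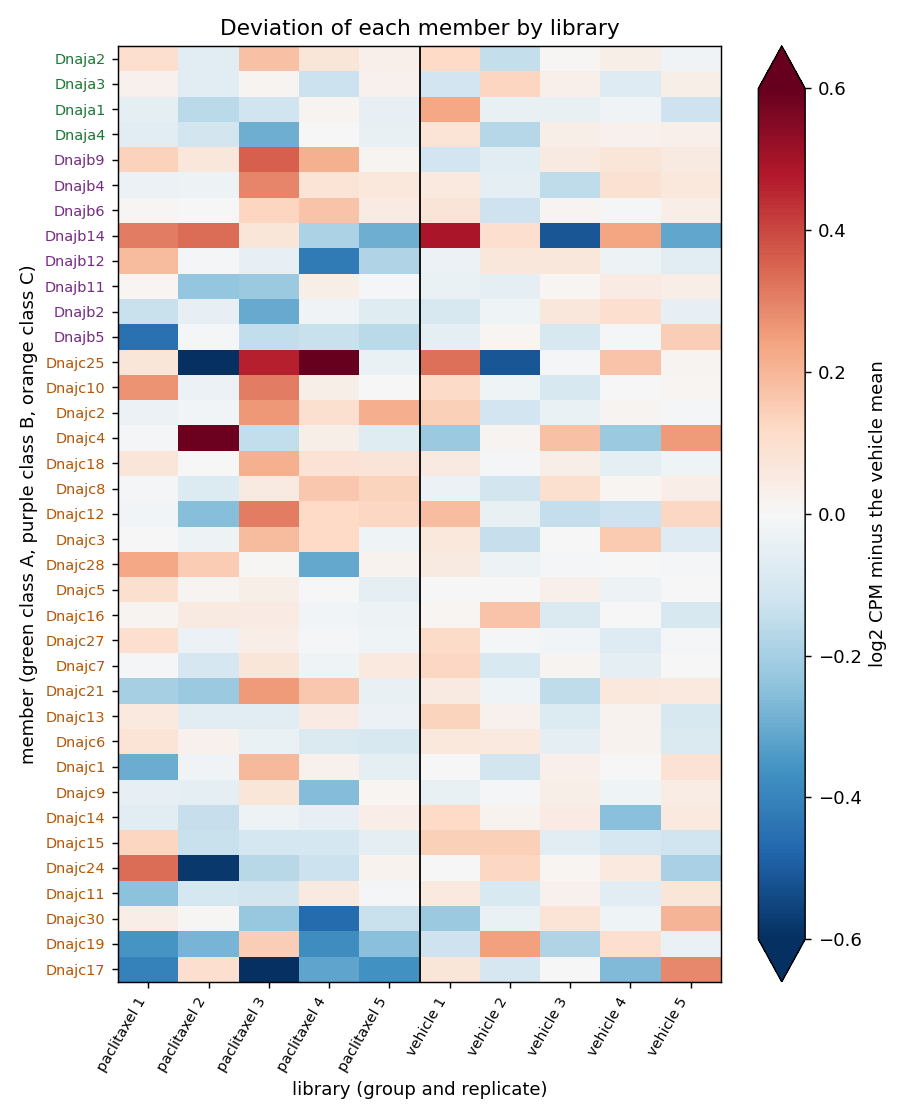
Log2 CPM of each tested member minus its vehicle mean in each library, with the 5 paclitaxel libraries left of the line and the 5 vehicle libraries right of it. Paclitaxel replicate 3 is red for Dnajb9 and Dnajb4 (higher) and blue for Dnaja4 and Dnajb2 (lower), and both colours occur on each side of the line in every class.

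The partners of J-domain proteins in the HSP70 cycle are set beside them here, from lists written with earlier results of these data known. The HSP70 family had 1 member higher and 14 lower in value of 15, with a median log2 fold change of -0.09, and 0 passed (3 at an unadjusted p under 0.05, Hspa5, Hspa1a and Hspa1b, beside 6.07% of all tested genes). Hspa5, the endoplasmic reticulum HSP70 also called BiP, was at 240 ± 8.04 CPM (SD, n = 5) with paclitaxel and 285 ± 26.5 CPM (SD, n = 5) with vehicle (log2 fold change -0.25, SE 0.06; edgeR adjusted p = 0.79). Among the BiP cochaperones, Dnajb9, Dnajb11, Dnajc3 and Dnajc10, had log2 fold changes of 0.16, -0.08, 0.05 and 0.12, and Dnajc1, another BiP partner, -0.02. The constitutive cytosolic Hspa8, the main HSP70 partner of Dnajc5 and Dnajc6, was at -0.09 (SE 0.04). Hspa1a and Hspa1b, the inducible pair, are near-identical in sequence. They were at -0.86 (SE 0.33) and -1.88 (SE 0.74), each at an edgeR adjusted p of 0.79. Hspa1a averaged 12.8 ± 2.87 CPM (SD, n = 5) with paclitaxel and 23.8 ± 11.6 CPM (SD, n = 5) with vehicle. Hspa1b averaged 4.92 ± 1.30 CPM with paclitaxel and 18.7 ± 20.3 CPM with vehicle, so its vehicle libraries were very uneven.

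Nucleotide exchange factors and HSP70 adaptors had 5 members higher and 12 lower in value of 17, with a median of -0.10. Of these 0 passed (3 at an unadjusted p under 0.05, beside 6.07% of all tested genes). The lowest p belonged to Ahsa1 (-0.22), an activator of HSP90, to St13 (-0.17), which stabilises HSP70 with its client, and to Stip1 (-0.16), which links HSP70 to HSP90. Among J-domain proteins with other names, Gak, the widely expressed auxilin, was at -0.10, the translocon partner Sec63 at 0.08, the import motor subunit Pam16 at -0.12 and the iron-sulfur protein Hscb at 0.03, and 0 of them passed. The regulators Hsf1, Hsf2 and Hsbp1 were at -0.34, -0.001 and -0.03, and Hsf1 had an unadjusted p of 0.00209 (edgeR, adjusted p = 0.79). The difference between these lists and the J-domain members was not tested, since genes are not replicates.

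**Figure D5:**
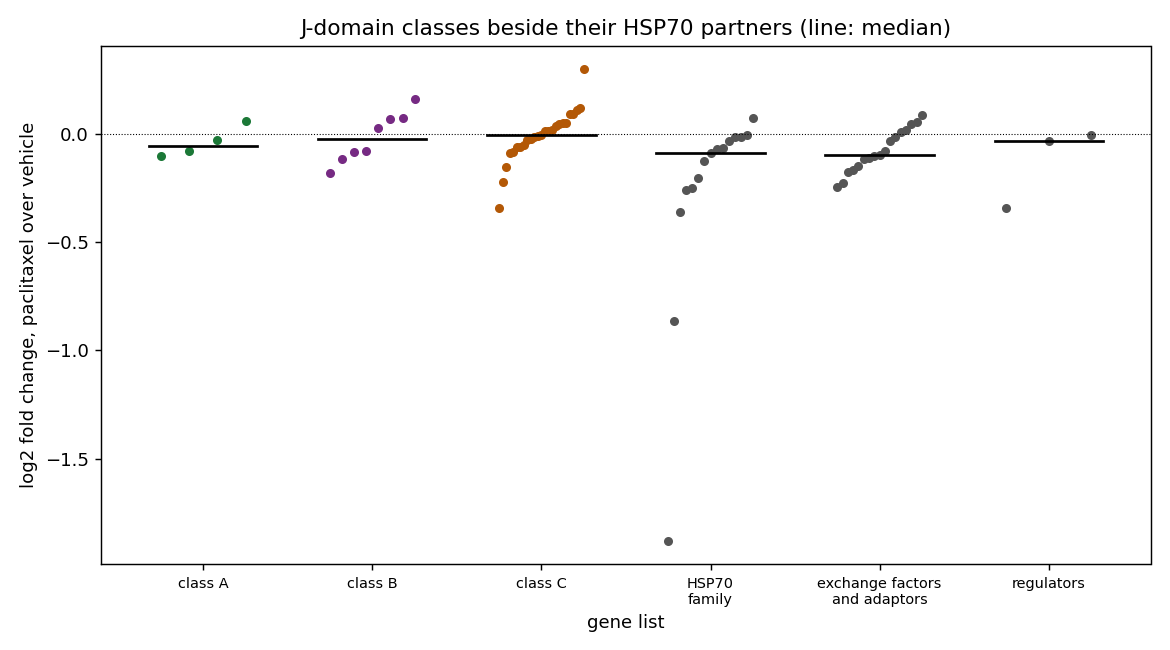
Log2 fold change, paclitaxel over vehicle, of each gene in the J-domain classes and in the lists of HSP70 partners, with a line at each median. The class medians lie at -0.05, -0.02 and -0.002, and those of the HSP70 family and of the exchange factors and adaptors at -0.09 and -0.10.

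Some members share sequence with other annotated genes. Exons of 17 members overlap those of another gene in GENCODE M21, 16 on the opposite strand and 5 on the same strand, and the strand setting of the counting is not given in the sources used here. Dnajc7 overlaps Cnp, an abundant oligodendrocyte gene, on the opposite strand, Dnajc19 overlaps Fxr1 and Dnajc17 overlaps Zfyve19. Reads from the overlapping exons could fit both genes if strand was not used. The expected counts of Dnajc7, Dnajc17 and Dnajc19 were whole in every library, so they show no split reads. The overlaps are from GENCODE, while the counts are listed with RefSeq transcripts. Whole counts therefore cannot tell whether reads of the other gene were given wholly to the member. Expected counts were not whole in any library for Dnaja1 and Dnajc14, and in 90% of libraries for Dnajc1.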

How the data were processed

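The authors deposited 1 table of expected counts (RSEM, unscaled) with each gene's RefSeq transcripts. The submitters' processing notes name mm10, STAR, RSEM and edgeR 4.2.0, and the sources used here give no other version, filter or strand setting. Values were rounded (5.04% were not whole). Pairs of libraries within a group differed by more than sampling noise (chi-square over its degrees of freedom 1.59 to 6.55), so none was treated as a repeat deposit of another.

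Genes were filtered with filterByExpr (minimum count 10, minimum total 15), scaled by TMM and compared with edgeR 4.0.16 in R 4.3.3, using robust quasi-likelihood fits with no covariate (two-sided F test), adjusted by Benjamini-Hochberg at 0.05 over all tested genes. Intervals are at 95%. The procedure was tested on simulated data. Alternatives used DESeq2 1.42.0, limma-voom 3.58.1, other scalings and filters, a replicate block, and each library left out. Leaving out paclitaxel replicate 3 with vehicle replicate 4 was chosen after seeing the data. Lengths came from GENCODE M21 transcripts matched by RefSeq accession (42 of 42 members), coordinates and promoters from RefSeq GRCm38.p6, the assembly of mm10.

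Members and lists were chosen with earlier results of these data known. Values by library are given for class A, and in classes B and C for the 3 members of highest CPM and the 4 of lowest p. Partner lists name the 3 genes of lowest p. Hspa8, Dnajb1, Dnajc3 and Dnajc25, and the libraries singled out, were chosen after their values were seen. Protein sequences were not used here, and 1 further gene of the partner lists is not reported here.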

Additional observations from a re-analysis of the deposited data

Results flagged for a closer look

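In 74 groups of 5 libraries (37 members in 2 treatments), 5 held a library far from the others, where about 5% of such groups are flagged by chance. Among the paclitaxel libraries, Dnajc4 was at 9.80 CPM in replicate 2 with the next at 6.55 CPM, Dnajc15 at 25.8 CPM in replicate 1 with the next at 22.6 CPM, and Dnajc19 at 19.7 CPM in replicate 3 with the next at 14.9 CPM. Among the vehicle libraries, Dnaja1 was at 389 CPM in replicate 1 with the next at 327 CPM, and Dnaja4 at 62.0 CPM in replicate 2 with the next at 71.2 CPM.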

How the results depend on the processing

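The count of members past an adjusted p of 0.05 was 0 in every alternative run. Of all tested genes 1 passed in DESeq2 (Klf4) and 1 in the fit with a replicate block (Fos). An unadjusted p under 0.05 was reached by 6.07% of all tested genes in the main fit. That share is not given here for the alternative runs, so their counts of members cannot be set against it. Members at that level numbered 1 with DESeq2 size factors (Dnajb9) and 1 without paclitaxel replicate 3 and vehicle replicate 4 together. They numbered 0 to 4 when each library was left out, with 4 without paclitaxel replicate 2 (Dnajb5, Dnajb9, Dnajc10 and Dnajc17). The median log2 fold change of class B ran from -0.0665 (without paclitaxel replicate 1) to 0.0217 (without paclitaxel replicate 4) over those fits, that of class A from -0.06 to -0.03, and that of class C from -0.02 to 0.02. The cause was not tested. Of 288 alternative values for the 16 members described by library, 5 had the other sign: Dnaja3 at 0.0002 and 0.0103 without paclitaxel replicate 4 or vehicle replicate 2 (range -0.05 to 0.0103), and Dnajc27 at -0.0055 and -0.0021 without paclitaxel replicate 1 or vehicle replicate 4 (range -0.0055 to 0.0474) and at -0.0125 without paclitaxel replicate 3 and vehicle replicate 4. Samples with the same number deviated together only weakly or not at all (correlation from -0.10 to 0.14, over 0.1 in 2 of 5 pairs, and 2 of 5 paclitaxel libraries matched their own number best). The labels do not say what the number stands for, and 5 pairs are too few to exclude a shared batch or pairing. Counts were fewest for Dnajc25, Dnajc4 and Dnajc17 among tested members (153, 349 and 380 in all).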
